A study of Mus musculus with 12 samples.

Results

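The striatum is the input nucleus of the basal ganglia, and 9 genes of its dopamine and adenosine signalling were followed through cerebral malaria and its treatment. They were Drd1, Drd2, Adora2a, Gpr6, Pde10a, Ppp1r1b, Rgs9, Penk and Ankk1, taken by symbol from the 21957 genes of the count table. All 9 were among the 14602 genes with enough reads to be tested. RNA-seq libraries were made from brains of wild-type C57BL/6 mice at 6 weeks of age, with 4 libraries in each of 3 groups. The treated ECM group had experimental cerebral malaria (ECM) and received artesunate, an antimalarial drug, for 4 days. The ECM group had the disease without the drug, and the control group was normal. The labels name neither the parasite, the dose nor the part of the brain taken, and they do not say whether each library came from a separate animal, so p-values measure the spread between libraries, which may be technical.

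Spiny projection neurons make up most of the striatum and form a pair of output pathways. Neurons of the direct pathway carry the dopamine D1 receptor, which raises cyclic AMP, whereas neurons of the indirect pathway carry the dopamine D2 receptor, which lowers it, together with the adenosine A2a receptor, which raises it. The phosphodiesterase Pde10a breaks cyclic nucleotides down in both kinds of neuron, and the phosphoprotein encoded by Ppp1r1b, known as DARPP-32, relays the balance to protein phosphatase 1. Drd2, Adora2a, Gpr6 and Penk are known as indirect-pathway genes in the mouse striatum, Drd1 as a direct-pathway gene, and Pde10a, Ppp1r1b and Rgs9 as genes of both.

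The upstream sequences of 2 receptor genes are shown, 1 with calls that held and 1 with widely spread libraries. Drd2 was called lower in ECM under all 22 alternatives tried, and Gpr6 had the widest spread between ECM libraries of the 9 genes. Both are RefSeq windows of build GRCm38.p6, read 5′ to 3′ on the gene's strand, covering the 250 bases before the RefSeq start and holding no exon annotated in GENCODE M21. Promoter windows for 5 of the 9 genes were in the table used. Capitals mark GGGCGG (the GC box, either strand) in Drd2 at chr9:49340153-49340402, plus strand, and TGACGTCA (the full cyclic AMP response element) in Gpr6 at chr10:41072291-41072540, minus strand.
Drd2: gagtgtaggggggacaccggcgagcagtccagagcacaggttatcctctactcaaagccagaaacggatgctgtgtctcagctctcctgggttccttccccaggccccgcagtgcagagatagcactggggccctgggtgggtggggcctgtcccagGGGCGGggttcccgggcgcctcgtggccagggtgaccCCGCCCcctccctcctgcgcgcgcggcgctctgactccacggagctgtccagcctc
Gpr6: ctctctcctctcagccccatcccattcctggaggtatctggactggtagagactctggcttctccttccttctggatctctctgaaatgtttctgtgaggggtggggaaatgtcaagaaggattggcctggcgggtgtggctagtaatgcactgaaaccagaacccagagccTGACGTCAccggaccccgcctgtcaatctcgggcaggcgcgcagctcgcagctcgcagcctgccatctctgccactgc
The GC boxes of Drd2 begin 93 and 56 bases before the start, and GGGCGG was found in 32.7% of 32851 windows of this length. The TGACGTCA of Gpr6 begins 78 bases before its start, a match found in 508 of those windows (1.55%). The same 8 letters were not in the windows of Drd1, Drd2, Pde10a or Rgs9. GGGCGG was not particular to Drd2, as Drd1, Pde10a and Rgs9 each had a window with it. These matches describe the letters only.

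Reads assigned to genes ranged between 13307625 and 18838545 per library. Levels below are CPM, which express the counts relative to each library after the TMM correction for composition, given as mean ± SD over 4 libraries. Their base was the reads on genes with names shorter than 8 characters, 12767654 to 18063035 per library. Fold changes are log2 values ± standard error from edgeR's quasi-likelihood test, and a gene was called when its Benjamini-Hochberg adjusted p over all genes tested was below 0.05. Libraries ECM 2, ECM 3 and control 4 stood apart. Their mitochondrial transcripts took 15.8%, 13.7% and 11.2% of reads, against 4.96% to 8.24% elsewhere. Genes rich in G and C were relatively low in them (rank correlation of a gene's GC content with its deviation of -0.32, -0.50 and -0.68). These measures also differed by group. Mitochondrial reads took 4.96% to 5.49% in treated ECM, below every ECM (5.79% to 15.8%) and control library (5.95% to 11.2%). The GC correlation was 0.42 to 0.54 in treated ECM, -0.50 to 0.55 in ECM and -0.68 to 0.32 in controls. The part of the mitochondrial share in the fold changes was not tested. The mean log2 level of 10 cerebellum markers relative to the mean of all libraries was 2.55 in ECM 2, -3.58 in ECM 3 and -3.03 in control 4. It was also -3.46 in ECM 1. Brain tissue was sampled in bulk, so fewer striatal cells in a sample and less RNA per striatal cell cannot be told apart.

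In ECM brains, transcripts of the dopamine D1 and D2 receptors, of the striatal phosphodiesterase and of 2 further members were called lower than in controls. Drd1, Drd2, Pde10a, Rgs9 and Ankk1 were called lower and 0 members higher, whereas 3.12% of all genes tested were called lower. The members were chosen with earlier results of these data known, so contrasts with the share of all genes are not independent support. The log2 fold changes of the 9 genes ran between -2.50 for Ankk1 and 0.11 for Ppp1r1b, with a median of -1.23, where the median of all genes was -0.02. In treated ECM brains, Drd2, Adora2a, Pde10a, Gpr6 and Ankk1 were called higher than in untreated ECM and 0 members lower, against 3.15% of all genes called higher, and the median of the 9 was 1.08. All ECM libraries lay below all controls for 4 of the 9, against 5.6% of all genes, and all treated libraries lay above all ECM libraries for 7 of the 9, against 11.1%. The count of 5 called lower in ECM became 3 without ECM 1, ECM 3, control 2 or any 1 treated library, and 2 without control 3. Calls of Drd2 and Pde10a in ECM against control held under all 22 alternatives, whereas Rgs9 passed in 9 and Drd1 in 7. Ankk1 passed in 19 of 21. The count of 5 called higher in treated ECM became 3 without ECM 1, control 1, control 2, control 3 or any 1 treated library. Shares of all genes called were not taken under omissions of 1 library, here or below. Whether these counts fell more than those of all genes was therefore not tested. Between treated ECM and control brains 0 of the 9 were called by edgeR or by DESeq2, and 0 had an unadjusted p below 0.05, where 2.03% of all genes were called. Comparisons of ECM with control and of treated ECM with ECM share the ECM libraries, so their fold changes are not independent of each other.

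**Figure D1:**
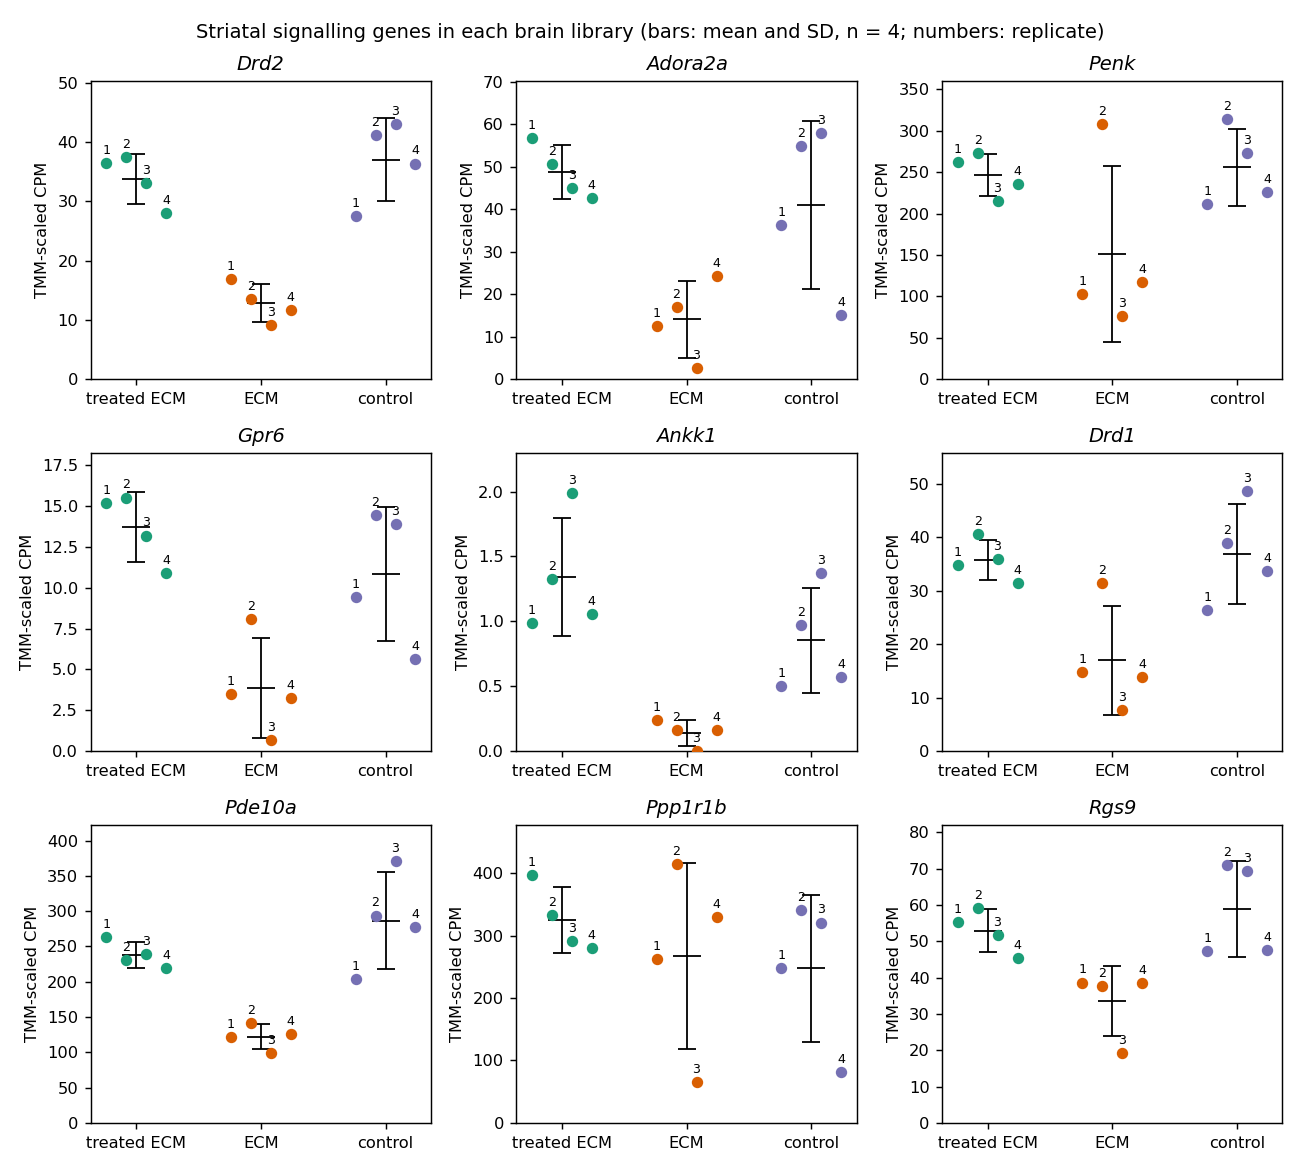
TMM-scaled CPM (vertical axes, each starting at 0) of the 9 genes in the 4 treated ECM, 4 ECM and 4 control libraries. Points are libraries with their replicate number, and bars are the mean and SD. Drd2, Pde10a, Rgs9 and Ankk1 were lower in all 4 ECM libraries than in any control library, while Ppp1r1b spanned 64.9 to 414 CPM within ECM.

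Drd2 encodes the dopamine D2 receptor, which couples to inhibitory G proteins (mm10, chromosome 9, 49340627 to 49408177, plus strand). It had 36.4, 37.5, 33.2 and 28.1 CPM in treated ECM libraries 1 to 4, 17.0, 13.5, 9.22 and 11.7 CPM in ECM libraries, and 27.6, 41.1, 43.1 and 36.4 CPM in controls. Every ECM library lay below every library of both other groups, and the treated and control ranges overlapped. The means were 12.8 ± 3.27 CPM in ECM and 37.0 ± 6.92 CPM in controls, a 2.88-fold lower level in ECM (log2 -1.53 ± 0.21, edgeR adjusted p = 0.000238). Treated ECM averaged 33.8 ± 4.22 CPM, 2.63-fold above ECM (log2 1.39 ± 0.21, adjusted p = 0.00195). Both calls held in all 12 omissions of 1 library and in all 10 other settings tried, with adjusted p at most 0.0129 across them. Treated ECM against control gave -0.13 ± 0.20 (adjusted p = 0.765).

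Drd1 encodes the dopamine D1 receptor, which stimulates adenylyl cyclase (chromosome 13, 54051183 to 54055705, minus strand). Its treated ECM libraries held 34.9, 40.7, 36.0 and 31.5 CPM, its ECM libraries 14.8, 31.5, 7.64 and 13.9 CPM, and its controls 26.5, 38.9, 48.7 and 33.8 CPM. ECM 2 reached the control range and the other ECM libraries lay well below it. The level was 17.0 ± 10.2 CPM in ECM and 37.0 ± 9.33 CPM in controls (log2 -1.12 ± 0.33, edgeR adjusted p = 0.0492). That call sat at the threshold. It was lost in 10 of 12 omissions of 1 library, with adjusted p up to 0.146, and was kept without control 1 (adjusted p = 0.0495) and without ECM 2 (log2 -1.59, adjusted p = 0.00185). Without ECM 3, its lowest library, the value was -0.86 (adjusted p = 0.0758). Treated ECM averaged 35.8 ± 3.78 CPM, and all 4 treated libraries lay above all 4 ECM libraries, narrowly between treated ECM 4 (31.50) and ECM 2 (31.47), yet the difference did not pass over all genes (log2 1.08 ± 0.33, adjusted p = 0.0633). It passed without ECM 2 (log2 1.54, adjusted p = 0.00635), and without ECM 3 it was 0.82 (adjusted p = 0.114). Drd1 in treated ECM and controls differed by -0.05 ± 0.33.

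Adora2a encodes the adenosine A2a receptor, the target of caffeine in the striatum, which opposes D2 signalling in the same neurons (chromosome 10, 75316877 to 75334784, plus strand). Its levels were 56.9, 50.8, 45.03 and 42.6 CPM in treated ECM, 12.5, 17.0, 2.58 and 24.3 CPM in ECM, and 36.3, 54.8, 58.1 and 15.03 CPM in controls. ECM 3 and control 4 were the lowest libraries of their groups, and control 4 lay inside the ECM range. Treated ECM averaged 48.8 ± 6.38 CPM and ECM 14.1 ± 9.10 CPM, a 3.45-fold difference with no overlap (log2 1.78 ± 0.51, edgeR adjusted p = 0.0488). This call was lost in 9 of 12 omissions (adjusted p up to 0.112) and was kept without control 4, ECM 3 or ECM 4. Against the control mean of 41.1 ± 19.8 CPM the ECM level did not pass (log2 -1.54 ± 0.51, adjusted p = 0.0792), but did without control 4 (log2 -1.79, adjusted p = 0.0246) and without ECM 4 (log2 -1.94, adjusted p = 0.0444). Without ECM 3 it was smaller and did not pass (log2 -1.18, adjusted p = 0.0700), and the same was so without control 3 (log2 -1.32, adjusted p = 0.200). Without ECM 3 the difference of treated ECM from ECM was 1.43 (adjusted p = 0.0497). Treated ECM against control gave 0.25 ± 0.49.

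Gpr6 encodes a receptor with high constitutive activity that raises cyclic AMP in indirect-pathway neurons (chromosome 10, 41069977 to 41072285, minus strand). It stood at 15.2, 15.5, 13.2 and 10.9 CPM in treated ECM, 3.47, 8.07, 0.665 and 3.26 CPM in ECM, and 9.43, 14.4, 13.9 and 5.66 CPM in controls. ECM 3 held 8 reads of the gene, and ECM 2 lay above control 4. The treated mean of 13.7 ± 2.13 CPM was 3.55-fold above the ECM mean of 3.87 ± 3.08 CPM with no overlap (log2 1.83 ± 0.50, edgeR adjusted p = 0.0404). The call was lost in 9 of 12 omissions (adjusted p up to 0.102) and was kept without control 4, ECM 2 or ECM 3. ECM against the control mean of 10.8 ± 4.12 CPM gave -1.49 ± 0.50 (adjusted p = 0.0817), which passed without control 4 (log2 -1.69, adjusted p = 0.0439) and without ECM 2 (log2 -2.10, adjusted p = 0.0142). Without ECM 3 it was -1.13 and did not pass (adjusted p = 0.0779). Treated ECM against control gave 0.34 ± 0.48. The related constitutively active receptor genes Gpr12 and Gpr3 had 11.6 and 7.33 CPM in ECM, against 16.3 and 4.96 CPM in controls. Neither passed (adjusted p = 0.0577 and 0.363). Gpr12 was called higher in treated ECM, at 17.6 CPM, than in ECM (log2 0.59 ± 0.15, adjusted p = 0.0279).

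Pde10a encodes the cyclic nucleotide phosphodiesterase most enriched in spiny projection neurons (chromosome 17, 8525372 to 8986648, plus strand). It had the tightest libraries of the 9 genes in ECM, with a coefficient of variation of 14.5%, where Gpr6 had 79.6%. Its values were 262.8, 230.2, 239.5 and 219.9 CPM in treated ECM, 121.7, 141.4, 98.7 and 126.2 CPM in ECM, and 203.4, 293.8, 370.5 and 277.6 CPM in controls. All ECM libraries lay below all libraries of both other groups. ECM averaged 122.0 ± 17.7 CPM and controls 286 ± 68.5 CPM (log2 -1.23 ± 0.18, edgeR adjusted p = 0.000486). Treated ECM, at 238 ± 18.3 CPM, was 1.95-fold above ECM (log2 0.96 ± 0.18, adjusted p = 0.00679). Both calls held in all 12 omissions. The call against ECM was lost when libraries were scaled by other striatal genes, as described with those genes. Treated ECM against control gave -0.27 ± 0.18.

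Ppp1r1b encodes DARPP-32, which inhibits protein phosphatase 1 once protein kinase A has phosphorylated it (chromosome 11, 98348404 to 98357796, plus strand). It had 396.9, 333, 291 and 280.4 CPM in treated ECM, 263, 414, 64.9 and 329.6 CPM in ECM, and 247.5, 341, 320.9 and 81.3 CPM in controls. The highest and the lowest of the 12 libraries were both ECM libraries, and control 4 was next lowest. The means were 325 ± 52.8 CPM in treated ECM, 268 ± 149 CPM in ECM and 248 ± 118 CPM in controls. ECM against control gave 0.11 ± 0.48 (edgeR adjusted p = 0.926) and treated ECM against ECM 0.28 ± 0.48 (adjusted p = 0.740). For treated ECM against control the value was 0.39 ± 0.48. Without ECM 2, ECM 3 and control 4 the values for ECM against control and treated ECM against ECM became -0.03 and 0.13. Ppp1r1b shares 460 exon bases (15.7%) with 1700003D09Rik, a transcript on the opposite strand, and the sources used here do not say whether reads were counted by strand.

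Rgs9 encodes a regulator of G protein signalling whose striatal form shortens D2 receptor signals (chromosome 11, 109225355 to 109298129, minus strand). Treated ECM libraries held 55.3, 59.2, 51.9 and 45.5 CPM, ECM libraries 38.7, 37.8, 19.2 and 38.6 CPM, and controls 47.3, 71.2, 69.3 and 47.5 CPM. ECM lay wholly below both other groups, with 3 ECM libraries close together and ECM 3 far under them. The means were 33.6 ± 9.59 CPM in ECM and 58.8 ± 13.2 CPM in controls (log2 -0.81 ± 0.23, edgeR adjusted p = 0.0384). The call was lost in 9 of 12 omissions (adjusted p up to 0.116) and was kept without control 1, control 4 or ECM 4. Without ECM 3 the value was -0.60 (adjusted p = 0.0531). Treated ECM averaged 53.0 ± 5.85 CPM and did not pass against ECM (log2 0.66 ± 0.23, adjusted p = 0.0900). Treated ECM against control gave -0.15 ± 0.23.

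Penk encodes proenkephalin, the precursor of the enkephalin opioid peptides of indirect-pathway neurons (chromosome 4, 4133531 to 4138819, minus strand). It had 261.9, 273, 215 and 236 CPM in treated ECM, 103, 308, 76.3 and 118 CPM in ECM, and 211.5, 314, 273 and 226 CPM in controls. ECM 2 lay within the control range and the other 3 ECM libraries lay below every control. With ECM 2 included, ECM averaged 151 ± 106 CPM and controls 256 ± 46.6 CPM, and the difference did not pass (log2 -0.76 ± 0.34, edgeR adjusted p = 0.210). Without ECM 2 it did (log2 -1.35, adjusted p = 0.000624), whereas without ECM 3 the value was -0.52 (adjusted p = 0.344). Treated ECM, at 247 ± 25.8 CPM, against ECM gave 0.70 ± 0.34 (adjusted p = 0.214), and 1.30 without ECM 2 (adjusted p = 0.00362). Treated ECM and controls differed by -0.05 ± 0.34. Penk shares 233 exon bases (14.3%) with A830012C17Rik on the opposite strand.

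Ankk1, a kinase gene beside Drd2, was the least abundant member and had the largest fold changes. Its gene lies on the minus strand of chromosome 9 (49415194 to 49427021), and its 3′ end faces that of Drd2 across 7016 bases. Reads were 18, 19, 30 and 16 in treated ECM, 3, 2, 0 and 3 in ECM, and 9, 15, 18 and 8 in controls. These amount to 1.34 ± 0.456 CPM in treated ECM, 0.140 ± 0.0998 CPM in ECM and 0.855 ± 0.404 CPM in controls. No ECM library reached any library of the other groups. ECM was lower than control (log2 -2.50 ± 0.59, edgeR adjusted p = 0.0150), a call lost without control 3 (adjusted p = 0.0515) and kept in the other 11 omissions. Treated ECM was higher than ECM (log2 3.15 ± 0.57, adjusted p = 0.00570), which held in all 12 omissions. With 8 reads over the whole ECM group, the size of both is poorly fixed. Treated ECM against control gave 0.65 ± 0.46. The next genes along the chromosome, Ttc12 and Ncam1, had 5.36 ± 2.04 and 246 ± 55.0 CPM in ECM, against 4.70 ± 1.18 and 266 ± 37.0 CPM in controls (adjusted p = 0.801 and 0.766).

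**Figure D2:**
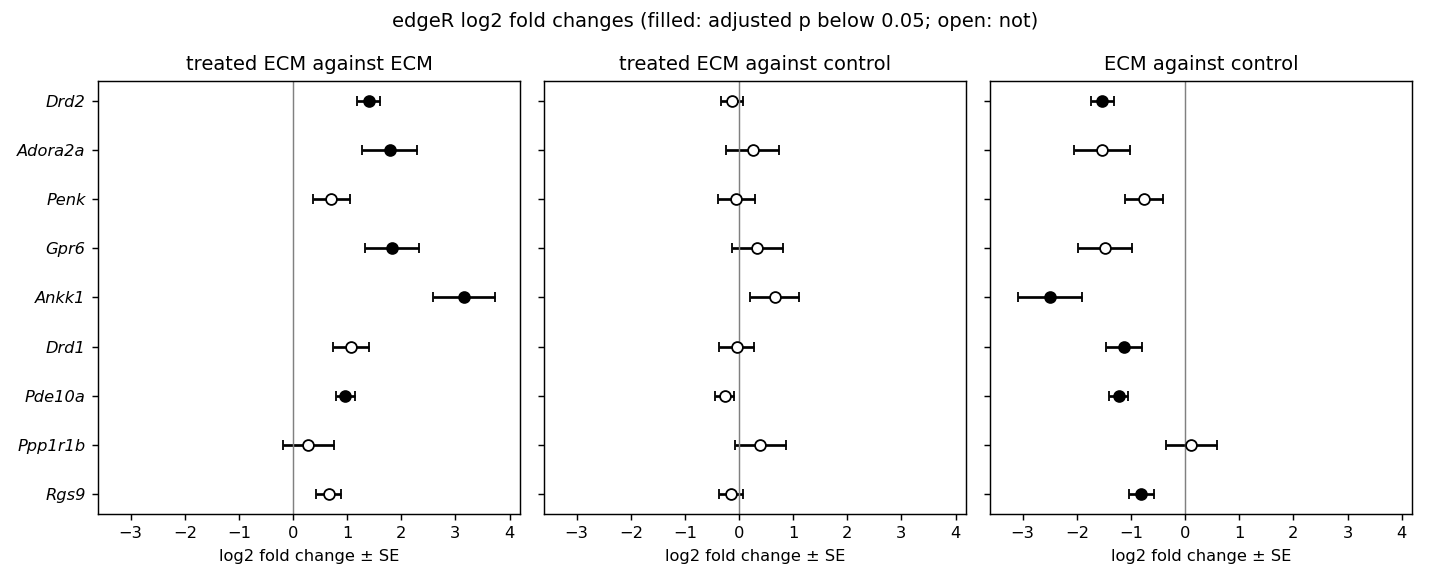
Log2 fold changes (horizontal axes) with their standard errors for the 9 genes in treated ECM against ECM, treated ECM against control and ECM against control, from 1 edgeR fit. Filled points have an adjusted p below 0.05. Ankk1 is farthest from 0 in both comparisons with ECM, at 3.15 and -2.50, and no point is filled in treated ECM against control.

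Per kilobase of annotated exon, Penk and Ppp1r1b were the most abundant of the 9 transcripts in all 3 groups, and Ankk1 the least. In treated ECM the levels were 151 CPM per kilobase for Penk, 111 for Ppp1r1b, 18.5 for Pde10a, 15.9 for Adora2a and 13.3 for Drd2. In ECM they were 92.6 for Penk, 91.5 for Ppp1r1b, 9.49 for Pde10a, 4.60 for Adora2a and 5.04 for Drd2, and in controls 157, 84.6, 22.3, 13.4 and 14.5. Penk and Ppp1r1b stood within their spread of each other in ECM, as did Adora2a and Drd2 in controls. Drd1, Rgs9 and Gpr6 stood at 9.86, 8.29 and 7.68 CPM per kilobase in treated ECM, 4.68, 5.25 and 2.17 in ECM, and 10.2, 9.21 and 6.07 in controls. By their means, in treated ECM and controls all 3 lay below Drd2 and Adora2a, whereas in ECM Rgs9 lay above both and Drd1 above Adora2a, with overlapping libraries. Ankk1 was at 0.455 in treated ECM, 0.0475 in ECM and 0.290 in controls.

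The members' spread followed libraries as well as groups. ECM 3 was the lowest ECM library for all 9 genes, treated ECM 4 the lowest treated library for 7, and control 1 or control 4 the lowest control for 6 and 3. Averaged over the 9 genes, the deviation from the group mean on the log2 scale was -0.97 in ECM 3, 0.64 in ECM 2 and -0.48 in control 4. Over the 12 libraries, pairs of members correlated with a median Pearson r of 0.83, the closest being Drd2 with Pde10a (0.96) and the loosest Pde10a with Ppp1r1b (0.27). With group means removed, the closest pair was Adora2a with Ppp1r1b (0.97) and the loosest Penk with Ankk1 (0.26). These points share libraries, and Adora2a and Ppp1r1b have the highest GC content of the 9 (59.8% and 57.5% of exon bases, against 46.2% in Drd1).

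**Figure D3:**
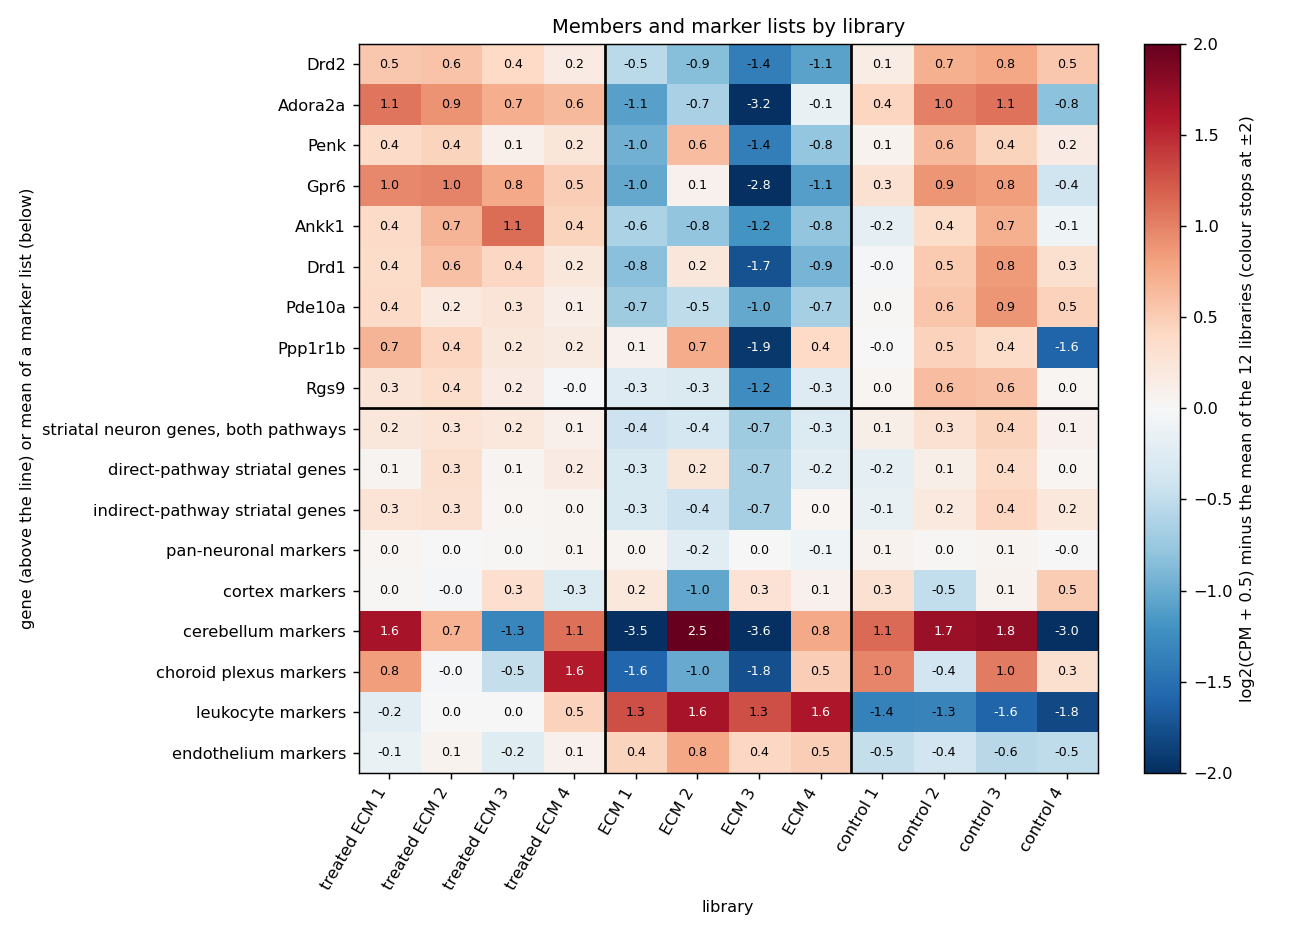
Log2(CPM + 0.5) minus the mean of the 12 libraries for each of the 9 genes (above the line) and for the mean of marker lists (below the line), with libraries in columns. Colours stop at 2 in either direction and the cells print the values. ECM columns are blue for most members, the pan-neuronal row stays near 0, and the cerebellum row is lowest in ECM 1, ECM 3 and control 4.

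Removing ECM 2, ECM 3 and control 4, which leaves 2 ECM, 4 treated ECM and 3 control libraries, gave 8 members called lower in ECM than in control. Under that setting 8.18% of genes were called lower. Only Ppp1r1b was not called (log2 -0.03). It gave 7 members called higher in treated ECM than in ECM, where 6.95% of genes were called higher, and Ppp1r1b and Rgs9 did not pass (log2 0.13 and 0.45, edgeR adjusted p = 0.643 and 0.0895). It gave 0 in treated ECM against control. A correction of each library for gene GC content gave 7 members called lower in ECM and 6 called higher in treated ECM, where 9.67% and 6.57% of all genes were so called. Adora2a stood at -1.59 (adjusted p = 0.00688) and 1.47 (adjusted p = 0.0143) under it. With the cerebellum score as a covariate, 6 were called in each comparison, against 8.23% and 5.16% of all genes. DESeq2 called 7 lower in ECM and 6 higher in treated ECM, against 4.61% and 5.53%.

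Of 16 other genes expressed in spiny projection neurons of both pathways, 6 were called lower in ECM than in control, with a median log2 fold change of -0.64, and 16 of 16 estimates were below 0. Not all of the 16 are confined to the striatum. Higher calls in treated ECM against ECM numbered 6 of the 16 (median 0.56), and in treated ECM against control 0 were called by edgeR or DESeq2, with 1 at an unadjusted p below 0.05. Omissions of 1 library gave 3 to 8 of the 16 called lower in ECM and 3 to 6 called higher in treated ECM, and without ECM 2, ECM 3 and control 4 the counts were 10 and 9. Rxrg, a retinoid receptor gene, had 18.1 ± 2.44 CPM in treated ECM, 6.13 ± 2.50 CPM in ECM and 16.5 ± 5.76 CPM in controls. It was lower in ECM than in control (log2 -1.43 ± 0.32, adjusted p = 0.0113) and higher in treated ECM than in ECM (log2 1.55 ± 0.32, adjusted p = 0.0113). The retinoic acid receptor gene Rarb had 7.99 ± 1.45 CPM in treated ECM, 3.24 ± 1.11 CPM in ECM and 8.54 ± 0.983 CPM in controls. Both of its ECM differences passed (log2 -1.38 ± 0.26, adjusted p = 0.00314, and 1.29 ± 0.26, adjusted p = 0.00986). Gng7, whose product pairs with the striatal G protein subunit of D1 and A2a receptors, had 271 ± 24.1 CPM in treated ECM, 107 ± 35.2 CPM in ECM and 217 ± 71.5 CPM in controls (adjusted p = 0.0309 in ECM against control and 0.0113 in treated ECM against ECM). Bcl11b, a transcription factor gene of spiny projection neurons and of some cortex neurons, stood at 98.0 ± 11.2, 64.3 ± 12.3 and 93.2 ± 6.13 CPM in treated ECM, ECM and control (adjusted p = 0.0422 in ECM against control and 0.0297 in treated ECM against ECM).

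When libraries were scaled by the summed counts of these 16 genes, which moved the median of all genes to 0.56 in ECM against control and to -0.57 in treated ECM against ECM, Drd2, Pde10a and Ankk1 were still called lower in ECM (log2 -0.95, -0.64 and -1.93), as were 0.466% of all genes. Drd2, Adora2a, Gpr6 and Ankk1 were still called higher in treated ECM (log2 0.83, 1.28, 1.31 and 2.63), as were 0.692% of all genes. Pde10a was not (log2 0.40, adjusted p = 0.0727). Scaled by 15 pan-neuronal markers, 3 members were called in either comparison, Drd2, Pde10a and Ankk1, against 2.84% of all genes lower in ECM and 2.73% higher in treated ECM. That list includes genes of GABA neurons, as given below, so this scaling is not independent of spiny projection neurons.

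**Figure D4:**
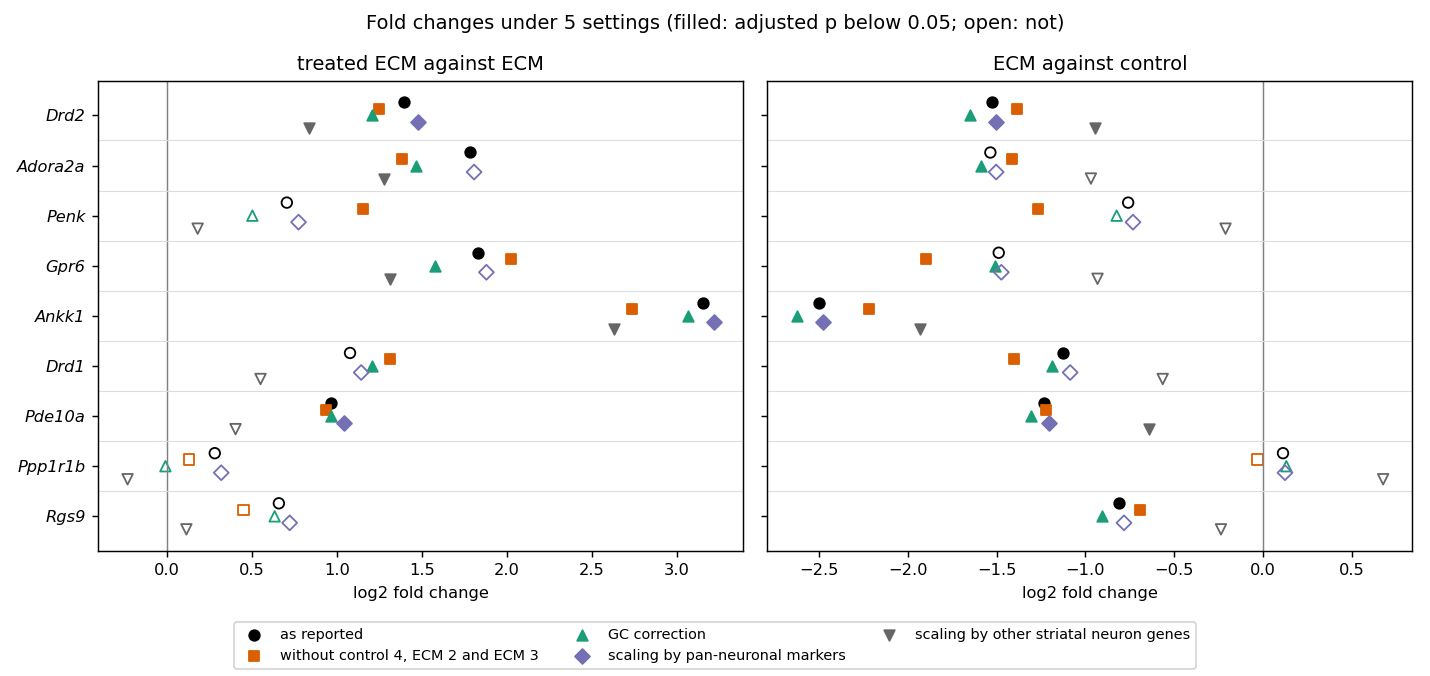
Log2 fold changes of the 9 genes in treated ECM against ECM and in ECM against control under 5 settings, with filled markers where the adjusted p was below 0.05. Drd2 and Ankk1 are filled under all 5 in both panels, while Ppp1r1b is open throughout and lies on both sides of 0.

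Markers of either pathway alone mostly lay below 0 in ECM against control without passing. Of 8 direct-pathway genes edgeR called 0 lower or higher in ECM (median -0.17, 6 below 0, 1 at an unadjusted p below 0.05, 0 by DESeq2). Of 5 indirect-pathway genes tested it called 0 (median -0.51, 5 below 0, 1 at an unadjusted p below 0.05, 0 by DESeq2). For treated ECM against ECM, edgeR again called 0 in either list, with 2 of each at an unadjusted p below 0.05, and DESeq2 called 1 direct-pathway gene. In that comparison 2 of the 8 and 2 of the 5 lay below 0. Chrm4, the muscarinic M4 receptor gene of the direct pathway, had 20.7 ± 2.0 CPM in treated ECM and 8.66 ± 4.52 CPM in ECM, just short of the threshold (adjusted p = 0.0527). Grik3, a kainate receptor gene, had 64.4 ± 25.6 CPM in ECM and 108 ± 12.9 CPM in controls (adjusted p = 0.101). Of 8 striatal interneuron genes edgeR called 0 in ECM, with 0 at an unadjusted p below 0.05 and 0 by DESeq2.

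Ratios within a library set indirect-pathway members against Drd1, and Ankk1 against Drd2. None of 15 tests over 5 ratios and 3 comparisons had an adjusted p below 0.05 (two-sided exact permutation tests, whose smallest possible p with 4 libraries against 4 is 0.0286), and 1 had an unadjusted p below 0.05. That was Gpr6 over Drd1, with a log2 ratio of -1.36 ± 0.14 in treated ECM and -2.15 ± 0.44 in ECM (difference 0.79, exact p = 0.0286, adjusted p = 0.286). Since this p is the smallest possible, no ratio could pass after adjustment unless most of the 15 tests reached it too. The absence of calls therefore does not show that the members moved alike. Drd2 over Drd1 was -0.25 ± 0.67 in ECM and 0.02 ± 0.13 in controls (difference -0.26, exact p = 0.686). Adora2a over Drd1 was -0.43 ± 0.94 in ECM and 0.01 ± 0.78 in controls (difference -0.45, exact p = 0.514). The spread within ECM was wider than either difference.

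Other genes of dopamine signalling showed 1 call. Drd3, the D3 receptor gene of the ventral striatum, lay at 0.158, 0.0815, 0.0831 and 0.107 CPM in ECM and at 0.388, 0.910, 0.610 and 1.07 CPM in controls, with no overlap (log2 -2.69, edgeR adjusted p = 0.0162). In treated ECM it had 0.814 ± 0.505 CPM, above ECM (log2 2.81, adjusted p = 0.0182). Its mean lies under 1 CPM in every group, and it is named because it was the only call among 9 dopamine receptor and dopamine handling genes tested, after its values were seen. Th, the rate-limiting enzyme of dopamine synthesis in midbrain neurons, had 17.96 ± 11.5 CPM in ECM and 24.1 ± 4.91 CPM in controls (adjusted p = 0.662). Of 5 midbrain dopamine neuron markers edgeR and DESeq2 called 0 in ECM, with 0 at an unadjusted p below 0.05. These varied widely within groups. Slc6a3 had 0.993 to 26.2 CPM in treated ECM, 0.326 to 27.6 CPM in ECM and 1.07 to 31.8 CPM in controls. With such spread the absence of calls does not show that their level was unchanged.

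Of 11 other adenosine receptor and adenosine handling genes tested, 3 were called higher in ECM than in control and 0 lower, where 7.07% of all genes were called higher. Entpd1, which encodes the ectonucleotidase CD39 of microglia and vessels, had 18.5 ± 2.55 CPM in treated ECM, 40.3 ± 7.15 CPM in ECM and 23.997 ± 5.63 CPM in controls (ECM against control log2 0.75 ± 0.19, adjusted p = 0.0247, and treated ECM against ECM -1.12 ± 0.19, adjusted p = 0.00475). Ada, adenosine deaminase, had 0.916 ± 0.301, 2.30 ± 0.312 and 0.896 ± 0.215 CPM in treated ECM, ECM and control (adjusted p = 0.0144 in ECM against control and 0.0241 in treated ECM against ECM). Adora3, the A3 receptor gene, had 2.43 ± 0.972 CPM in ECM and 0.624 ± 0.302 CPM in controls (log2 1.95 ± 0.38, adjusted p = 0.00444). Beside these, 8 of 9 leukocyte markers were called higher in ECM, and 7 of 9 were called lower in treated ECM than in ECM. The 8 called in ECM summed to 28.9 to 52.4 CPM in treated ECM, 104.6 to 145.6 CPM in ECM and 7.40 to 9.81 CPM in controls, with 1 of them at 0 in every control library. Coro1a, the marker not called, had 87.3 to 105 CPM in treated ECM, 36.9 to 139 CPM in ECM and 21.8 to 83.0 CPM in controls. Of 6 endothelium markers, 4 were called higher in ECM and 1 lower, with 2 called lower in treated ECM than in ECM, and the 6 summed to 293 to 373 CPM in treated ECM, 426 to 602 CPM in ECM and 234 to 287 CPM in controls. Among 6 astrocyte markers 1 was called in ECM, Gfap, at 393 ± 130.2 CPM in treated ECM, 960.1 ± 127 CPM in ECM and 227 ± 45.8 CPM in controls. The 5 microglia markers, of which 1 was called higher in ECM, summed to 169 to 260.2 CPM in treated ECM, 199 to 251 CPM in ECM and 208 to 250.4 CPM in controls. DESeq2 called 3 of the 5 in ECM, and 3 had an unadjusted edgeR p below 0.05, 1 of them lower. The sums cover opposite shifts. Csf1r had 108 to 156 CPM in ECM and 91.1 to 98.5 CPM in controls. P2ry12 had 15.2 to 38.2 CPM in ECM and 43.6 to 101 CPM in controls. The part of these cells in the adenosine genes was not tested.

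In the cyclic AMP cascade, 2 of 13 G protein and adenylyl cyclase genes were called lower in ECM. Adcy8, a calcium-stimulated cyclase gene, had 38.6 ± 2.77 CPM in treated ECM, 21.8 ± 4.72 CPM in ECM and 40.4 ± 6.52 CPM in controls (log2 -0.89 ± 0.18, edgeR adjusted p = 0.00593, and 0.83 ± 0.18, adjusted p = 0.0149). Gnal, the G protein subunit through which striatal D1 and A2a receptors act, had 204 ± 25.0 CPM in ECM and 306 ± 54.3 CPM in controls (log2 -0.59 ± 0.15, adjusted p = 0.0269). Treated ECM had 248 ± 13.6 CPM of Gnal (adjusted p = 0.268 against ECM). Of 16 kinase, phosphatase and phosphodiesterase genes tested, Pde7b alone was called in ECM, at 42.8 ± 6.30 CPM in ECM and 73.1 ± 19.9 CPM in controls (log2 -0.77 ± 0.20, adjusted p = 0.0257). Pde4b alone was called in treated ECM against ECM, at 120 ± 8.70 CPM in treated ECM and 243 ± 33.5 CPM in ECM (log2 -1.02 ± 0.18, adjusted p = 0.00456). Of 9 other RGS genes and partners, and of 6 other opioid genes, edgeR and DESeq2 called 0 in ECM, with 1 of each list at an unadjusted p below 0.05.

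**Figure D5:**
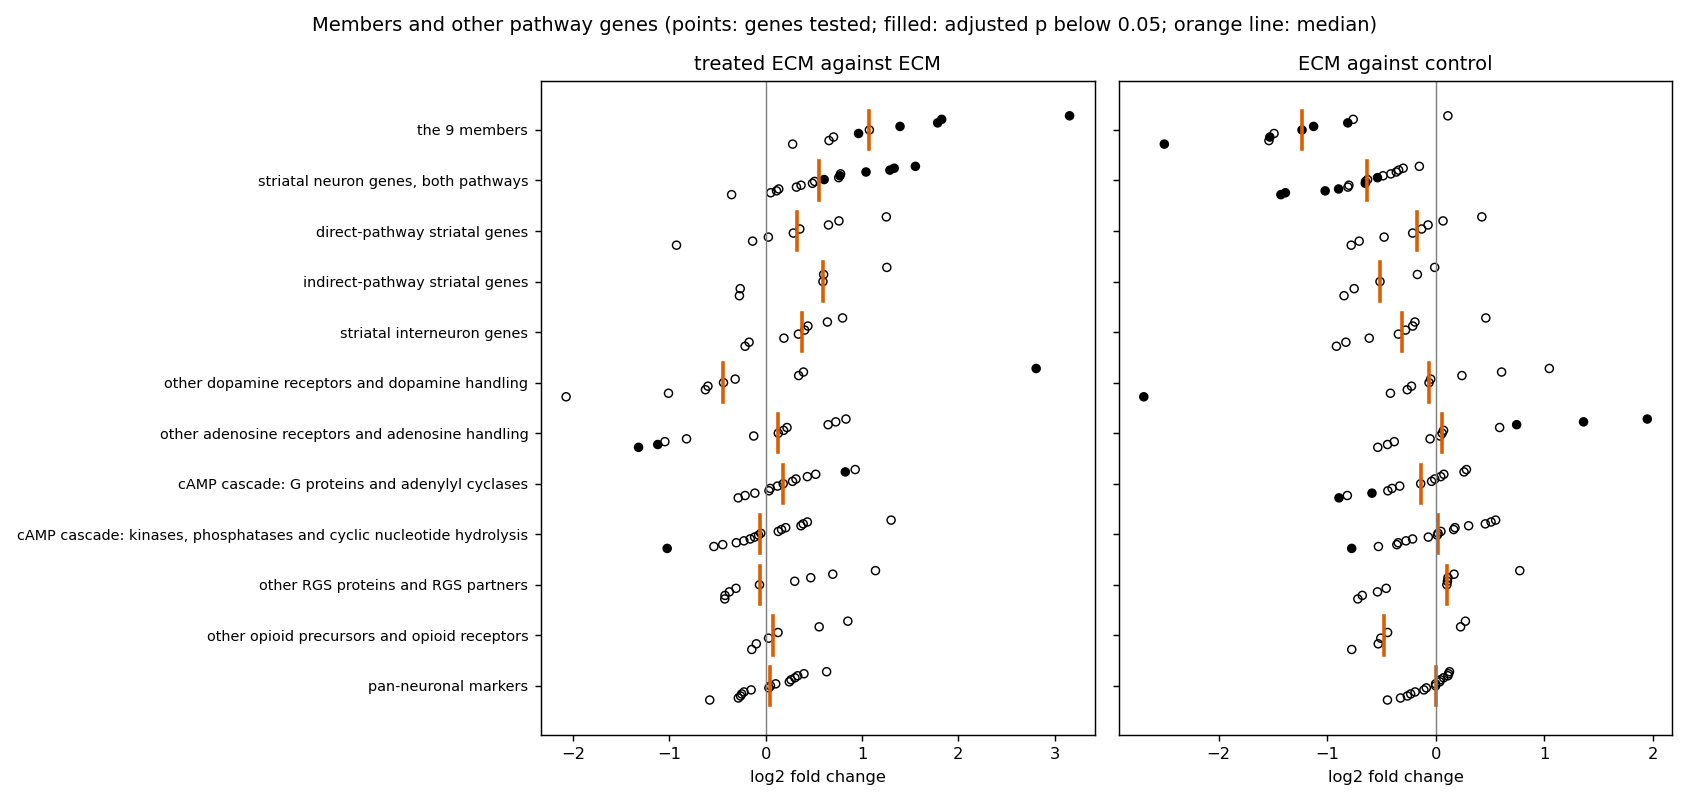
Log2 fold changes (horizontal axes) of the 9 genes and of other pathway lists in treated ECM against ECM and in ECM against control. Each point is a gene tested, filled where its adjusted p was below 0.05, and the orange lines are medians. The medians of the 9 genes, 1.08 and -1.23, lie beside 0.56 and -0.64 for the other striatal genes and 0.05 and 0.00 for the pan-neuronal markers.

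Of 15 pan-neuronal markers edgeR and DESeq2 called 0 in ECM (median 0.00, 0 at an unadjusted p below 0.05), and their summed level was 10354 to 11226 CPM in treated ECM, 10183 to 13391 CPM in ECM and 10267 to 14071 CPM in controls. The list includes Gad1, Gad2 and Slc32a1, which mark GABA neurons, spiny projection neurons among them. It also includes Slc17a7, which marks glutamate neurons, so not every gene in it is common to all neurons. Of 10 cortex markers and 10 cerebellum markers both tools called 0 in ECM, with 0 at an unadjusted p below 0.05. The cerebellum markers summed to 491 to 2986 CPM in treated ECM, 229 to 6478 CPM in ECM and 481 to 3341 CPM in controls, a wide range within every group. Choroid plexus markers summed to 78.1 to 893 CPM in treated ECM, 14.6 to 393 CPM in ECM and 69.0 to 633 CPM in controls (5 markers, 0 called). The part of such regional differences between samples in the striatal values was tested only through the covariate and omissions given above.

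Among 11084 genes with at least 5 CPM, genes whose levels followed the mean of the 9 members closely over the 12 libraries included Adnp2 (Pearson r 0.96), Rxrg, Top3b, Ubl4a, Gng7, Map6d1 and Pigg (0.93). With group means removed, close followers included Six3 (0.93), Pdyn, Enkd1, Nhlrc1, Top3b and Tm2d2 (0.89). Six3 and Pdyn are known striatal genes, of the indirect and the direct pathway. These are correlations over libraries that share depth and composition.

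The authors' deposited tables list only genes with a log2 fold change of at least 1.00 in size and an unadjusted p-value below 0.05, so a gene can be missing for its fold change alone. In the authors' deposited table of ECM against control, 6 of the 9 genes are listed. Drd2, Pde10a, Ankk1 and Drd1 carry adjusted p-values below 0.05 in that deposited table, Drd1 at 0.0487, while Adora2a and Gpr6 stand at 0.0510 and 0.0679. In the authors' deposited table of treated ECM against ECM, 5 are listed, Drd1, Drd2, Adora2a, Gpr6 and Ankk1, with Drd1 at an adjusted p-value of 0.0245. Pde10a is not in it, its fold change here being 0.96. In the authors' deposited table of treated ECM against control, 0 of the 9 are listed.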

How the data were processed

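Per the labels' protocols, brain RNA came from RNAlater-stored tissue by Trizol extraction and went into NEBNext Ultra libraries. The submitters' processing notes name HTSeq, STAR, FastQC, Trimmomatic and mm10. Their versions, annotation and strand setting were not given in the sources used here. Whole counts were deposited by the authors per gene for 12 libraries, unscaled. Their deposited comparison tables also give a log2 fold change, p-values, a normalized signal and an FPKM per gene, per the file headers; the signal and FPKM columns were not used. A name of 8 or more characters had pushed values into the next column in 2212 genes, and these were moved back. Cells of 2 deposited columns hold other text in those rows. Treated ECM 4 was left out for these genes because its values differed from the deposited comparison tables in 32 of 33 and 77 of 85 genes. None of the 9 genes has such a name. 26 names turned into dates were dropped.

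After filterByExpr and TMM scaling, counts were fitted in 1 edgeR quasi-likelihood model over 3 groups (edgeR 4.0.16, R 4.3.3), with Benjamini-Hochberg adjustment over 14602 genes. DESeq2 1.42.0 was an alternative. The fit was run on simulated counts drawn from the means and spread of the controls. These held no shifts of whole libraries in GC content or brain region, so that run does not cover such shifts. Tables and plots used pandas 2.3.3, matplotlib 3.10.9 and numpy 2.4.6 in Python 3.11.15. Coordinates come from GENCODE M21 by symbol (21871 genes matched, 99.6%). Ratios, scores and correlations used log2(CPM + 0.5). No 2 libraries of a group agreed within sampling noise. The members, the gene lists and the 3 libraries left out together were chosen with earlier results of these data known. Named genes are the 9, up to 4 per list with a mean of at least 1 CPM in a group, by number of calls and then by fold change in ECM, and the 8 genes of most similar pattern, some of which are not reported here.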

Additional observations from a re-analysis of the deposited data

Results flagged for a closer look

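Rgs9 in ECM 3, at 19.2 CPM, lay far from the other ECM libraries, whose nearest value was 37.8 CPM. The gap took 0.95 of the group's range, above Dixon's critical value for 4 samples. It was 1 of 27 groups of 4 examined, and chance alone flags about 1 in 20. ECM 3 was also the lowest ECM library for the other 8 genes.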

How the results depend on the processing

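The calls of Drd2 in both comparisons with ECM, of Pde10a in ECM against control and of Ankk1 in treated ECM against ECM held under all 22 alternatives. Members called in ECM against control, 5 as reported, were 2 with only these groups in the fit (Ankk1 was then filtered out; 1.03% of all genes called lower), 3 under scaling by pan-neuronal markers and 3 under scaling by other striatal genes, and 8 without control 4, ECM 2 and ECM 3. Omissions of 1 library gave 2 to 6. For treated ECM against ECM, 5 as reported, scaling by pan-neuronal markers gave 3 and omissions 3 to 6. The share of all genes called was not taken under these omissions. DESeq2 called 7 and 6. Every alternative gave 0 in treated ECM against control.

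Libraries of the same number did not deviate together (correlations of -0.67 to 0.33 over 12 pairs, 4 above 0.1). In 3 of these 12 pairs the same number was the best match among the 4 libraries of the other group. With the replicate number as a block, 2 members were called lower in ECM than in control (1.46% of all genes), 3 higher in treated ECM than in ECM (1.15%), and 0 in treated ECM against control.

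Some uncalled estimates changed sign and stayed uncalled; the cause was not tested. Ppp1r1b in treated ECM against ECM was -0.0096 with the GC correction, -0.23 under scaling by other striatal genes and -0.059 to 0.56 over omissions. In ECM against control it was -0.031 without the 3 libraries and -0.16 to 0.45 over omissions. For treated ECM against control, the GC correction gave -0.12 for Adora2a and 0.022 for Drd1, scaling by pan-neuronal markers gave 0.057 for Drd1 and 0.042 for Penk, and leaving out the 3 libraries gave -0.028 for Adora2a. Over omissions these ran -0.026 to 0.46 for Adora2a, -0.18 to 0.11 for Drd1 and -0.14 to 0.060 for Penk. With a pseudocount of 0.1 the log2 ratio of Ankk1 over Drd2 differed by -0.49 in ECM against control (0.46 as reported) and by 1.25 in treated ECM against ECM (0.12 as reported), so it depends on the pseudocount. Ratios with 1 library left out were compared by value only and were not tested. Depth limits Ankk1 and Drd3, with 0 to 3 reads of Ankk1 per ECM library.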
